A study of Mus musculus with 12 samples.

Results

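At day 16.5 of pregnancy, mammary ductal macrophages differed from the same cells at every other stage sampled in a set of transcripts. Most of that set was lower by edgeR, but not by limma-voom. RNA sequencing covered sorted macrophages of the gland of C57BL/6 female mice, and the 3 Pregnant libraries were compared with 9 others: 3 Virgin, 3 Lactating and 3 Post-weaning libraries, the last from glands 1 month after weaning. The 3 other stages were weighted equally, so the averaged contrast is the Pregnant mean minus the mean of the 3 stage means on the log2 scale. The labels of all 12 libraries name that strain and no other genotype or treatment. Each was made from 2000 cells, and neither the sorting gate, the age of the mice nor the day of lactation is given in the sources used here. The libraries of a stage are labelled biological replicates. The p-values therefore measure the spread between such samples, and whether a library pooled several mice is not stated.

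Ductal macrophages lie between and beneath the epithelial cells of the mammary ducts and alveoli, where they sample the epithelium and clear dying cells. In pregnancy the ducts branch and alveoli form, in lactation the alveoli secrete milk, and after weaning most of the milk-producing epithelium dies, is cleared, and the gland returns to a resting state. Macrophages respond to signals within minutes through immediate early genes and the transcription factor NF-kB, whose inhibitors and feedback regulators are themselves among its targets. They also take up debris through scavenger receptors, digest it in lysosomes, and secrete complement proteins.

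Levels are CPM, that is counts divided by TMM-adjusted library sizes, and libraries are listed in the order of their replicate numbers. Library totals ran from 6926273 to 21204704 counts, with 8510895, 8425970 and 21204704 in the Pregnant libraries. The Pregnant libraries resembled each other most, with mean Spearman correlations across genes of 0.933 to 0.944 within the stage, against 0.85 to 0.866 in Virgin, 0.894 to 0.903 in Post-weaning and 0.748 to 0.817 in Lactating libraries. Lactating replicate 3, at 0.748, stood apart. There, milk and secretory cell genes made up 7.57% of the total, and 0.207% and 0.21% in the remaining Lactating pair, so results are also given without it. The 22 macrophage identity genes took 6.89 to 7.34% of the counts in Pregnant libraries, 4.02 to 4.67% in Virgin, 2.14 to 5.42% in Lactating and 5 to 5.52% in Post-weaning libraries. Leaving out Lyz2, the lysozyme gene of macrophages, the ranges were 4.12 to 4.51%, 3.69 to 4.12%, 1.91 to 4.72% and 4.23 to 4.51% in the same order. None of 4 macrophage genes followed one by one, 3 of them on that list, passed the test. Adgre1, which encodes F4/80, had 478, 673 and 671 CPM in the Pregnant libraries and 263 to 981 CPM in the others (adjusted p = 0.809). Csf1r, the CSF-1 receptor gene, had 1377, 1287 and 1146 CPM against 489 to 1669 CPM (adjusted p = 0.896). Cx3cr1 and Itgax, which encode the fractalkine receptor and CD11c, had log2 fold changes of -0.11 ± 0.17 and 0.42 ± 0.23 (adjusted p = 0.875 and 0.442).

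Of 12672 genes tested with edgeR, 350 (2.76%) were called in the averaged contrast at an adjusted p under 0.05, 136 higher (1.07%) and 214 lower (1.69%) in pregnancy. A called gene was counted as peculiar to pregnancy if it also differed from the Virgin, the Lactating and the Post-weaning libraries separately, in the same direction each time and at an unadjusted p under 0.05. Of the genes tested, 272 met that rule (2.15%), 80 higher (0.631%) and 192 lower (1.52%). A stricter count asked for an adjusted p under 0.05 in each of the 3 pairwise comparisons, which share the Pregnant libraries. It held 52 genes (0.41%), 46 lower (0.363%) and only 6 higher (0.0473%): the thiol reductase gene Ifi30, the properdin gene Cfp, the membrane protein gene Gpm6b, the nuclease gene Dnase1l3, the glutathione transferase gene Gsto1 and the translocon gene Sec61b. The pairwise comparisons alone called 167 genes against Virgin (1.32%), 488 against Lactating (3.85%) and 91 against Post-weaning (0.718%). Of the 192 lower genes, 138 had their highest mean level in Lactating, 38 in Virgin and 16 in Post-weaning libraries. The 80 higher genes were lowest in Virgin for 38, in Lactating for 22 and in Post-weaning for 20.

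These counts moved with the libraries entered. Without Lactating replicate 3 there were 700 called genes, 289 higher (2.15% of those tested) and 411 lower (3.06%), 487 peculiar genes, 161 higher (1.2%) and 326 lower (2.43%), and 156 strictly peculiar genes, and all 350 called and 267 of the 272 peculiar genes were among them. Leaving out Pregnant replicate 1, 2 or 3 left 147, 79 or 121 called, 133, 70 or 105 peculiar and 18, 1 or 5 strictly peculiar genes. Without Post-weaning replicate 1, 2 or 3 there were 215, 202 or 207 called, 180, 174 or 177 peculiar and 11, 8 or 7 strictly peculiar genes. The strict count was 25 or 21 without Virgin replicate 2 or 3, and 32 without Lactating replicate 1. In all 12 fits that left out a library, 74 genes stayed called and 66 stayed peculiar. The excess of lower genes also depended on the method, since limma-voom called 491 genes higher and 274 lower. Its peculiar genes were 273 higher and 215 lower, and 388 higher and 376 lower with quality weights. DESeq2 had 132 higher and 414 lower peculiar genes.

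**Figure D1:**
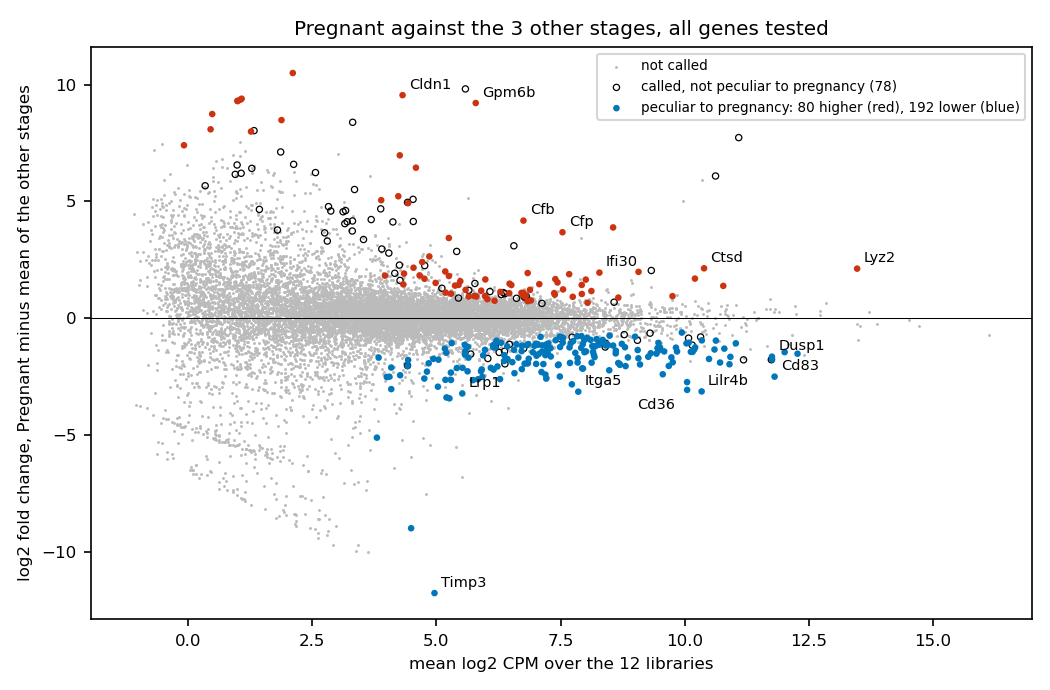
Each point is a gene: its mean log2 CPM over the 12 libraries on the x axis and its log2 fold change, Pregnant minus the mean of the other stages, on the y axis. Genes peculiar to pregnancy are red where higher (80) and blue where lower (192), other called genes are open circles (78), and the fitted values of genes with 0 counts at a stage, such as Timp3 and Cldn1, depend on the prior count.

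Immediate early genes were lower in pregnancy as a group. Here and below, lists and their members were chosen with earlier results of these data known. Their counts set against all genes are therefore descriptive. The immediate early list holds genes that are transcribed within minutes of a stimulus, among them the stress-response genes that also rise when tissue is dissociated into cells. Any difference between stages in dissociation or sorting cannot be told apart from pregnancy here, and it was not tested. The same holds for the NF-kB and feedback regulator lists below. All 35 tested members had log2 fold changes below 0, with a median of -1.42 against 0.12 over all genes tested. Of them 19 fell, against 1.69% of all genes, and none rose. 16 were peculiar to pregnancy, against 1.52%, and in 17 all 3 Pregnant libraries lay below all 9 others, which 2.53% of genes did. The list took 0.634 to 0.826% of the counts of the Pregnant libraries, 1.61 to 2.6% in Virgin, 1.28 to 1.46% in Lactating and 1.9 to 1.99% in Post-weaning libraries. The number of members called was 24 without Lactating replicate 3, and 7 or 9 when Pregnant replicate 2 or 3 was left out.

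Gadd45b, a stress-induced gene whose product acts on MAP kinase signalling and DNA demethylation, had 153, 107 and 121 CPM in the Pregnant, 393, 549 and 423 in the Virgin, 685, 809 and 502 in the Lactating and 379, 421 and 418 in the Post-weaning libraries. The Pregnant libraries were the 3 lowest of the 12, at a mean 4-fold below that of the other stages (log2 fold change of -1.97 ± 0.21, adjusted p = 0.00163). Btg2, which encodes an antiproliferative cofactor of mRNA deadenylation, had 214, 137 and 161 CPM in the Pregnant libraries, 656, 719 and 849 in Virgin, 531, 399 and 378 in Lactating and 477, 439 and 602 in Post-weaning libraries (log2 fold change of -1.68 ± 0.20, adjusted p = 0.00205). Ppp1r15a, which encodes GADD34, the phosphatase subunit that ends the integrated stress response, had 218, 138 and 153 CPM in pregnancy and 514 to 1031 CPM in the other libraries (log2 fold change of -1.98 ± 0.24, adjusted p = 0.00205). In both genes no Pregnant library reached the lowest of the others. Gadd45b, Btg2 and Ppp1r15a passed the test against each stage, as did Klf6, Nr4a1, Csrnp1, Zfp36 and Dusp1, the other members in the strict count. Csrnp1 and Dusp1 lost their averaged calls without Pregnant replicate 2 or 3 (highest adjusted p = 0.0539 and 0.0906). Nr4a1, an orphan nuclear receptor gene, had 78.6, 54.5 and 73 CPM against 153 to 410.1 CPM (log2 fold change of -2.16 ± 0.30, adjusted p = 0.00391). Fos, an AP-1 subunit gene, had 610.3, 438 and 547 CPM in Pregnant and 618, 492 and 541 CPM in Lactating libraries, which overlap, against 1375, 1731 and 1979 in Virgin and 2132, 1672 and 1528 in Post-weaning libraries. Its averaged contrast was called (log2 fold change of -1.16 ± 0.19, adjusted p = 0.00748) but its comparison with Lactating was not (adjusted p = 0.946), so it is not counted as peculiar to pregnancy. Fos was no longer called without Pregnant replicate 2 (adjusted p = 0.0763). Exons of Ppp1r15a overlap those of Tulp2 on the opposite strand, and without a stated strand setting their reads cannot be told apart.

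The 4 promoters below, 250 bases up to the annotated start from the RefSeq table of GRCm38.p6, belong to the called members of this list with the smallest adjusted p that the table holds. They are shown because these members fell together, with matches to some of the motifs searched in capitals: a TATA box (TATAAA), a core promoter element, in Gadd45b, and the signal-response motifs of the others, a cyclic AMP response element (CRE, TGACGTCA) in Btg2 and in Ppp1r15a, and a pair of adjoining CArG boxes, the core of the serum response element, in Dusp5. CCAAT boxes, found in Gadd45b and Btg2, were searched as well but left in small letters.
Gadd45b, chr10:80929841-80930090, plus strand: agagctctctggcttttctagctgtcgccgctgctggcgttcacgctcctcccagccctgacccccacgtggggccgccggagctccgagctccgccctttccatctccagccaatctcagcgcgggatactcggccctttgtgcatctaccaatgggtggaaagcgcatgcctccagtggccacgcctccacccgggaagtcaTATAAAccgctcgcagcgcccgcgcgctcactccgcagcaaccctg
Btg2, chr1:134079156-134079405, minus strand: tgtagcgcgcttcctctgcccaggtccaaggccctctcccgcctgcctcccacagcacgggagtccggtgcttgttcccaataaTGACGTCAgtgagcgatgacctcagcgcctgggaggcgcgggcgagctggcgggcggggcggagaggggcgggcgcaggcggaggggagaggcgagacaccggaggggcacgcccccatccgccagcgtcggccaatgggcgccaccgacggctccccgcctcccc
Ppp1r15a, chr7:45526269-45526518, minus strand: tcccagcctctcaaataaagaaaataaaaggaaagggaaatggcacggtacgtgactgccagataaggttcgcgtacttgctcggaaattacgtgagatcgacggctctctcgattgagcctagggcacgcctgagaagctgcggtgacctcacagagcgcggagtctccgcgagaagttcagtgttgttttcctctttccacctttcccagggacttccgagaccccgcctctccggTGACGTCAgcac
Dusp5, chr19:53528895-53529144, plus strand: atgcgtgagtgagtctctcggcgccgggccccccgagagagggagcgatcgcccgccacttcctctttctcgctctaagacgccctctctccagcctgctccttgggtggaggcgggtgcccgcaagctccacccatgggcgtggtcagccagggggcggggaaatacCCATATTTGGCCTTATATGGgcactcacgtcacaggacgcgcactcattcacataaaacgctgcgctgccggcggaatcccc
Counting back from the start, the CRE spans bases -166 to -159 in Btg2 and -12 to -5 in Ppp1r15a, and the CArG boxes of Dusp5 span -82 to -73 and -72 to -63. Both strands were searched, and of the 35 members 29 had a promoter in the table. A CRE stood in 3 of those 29 (10.3%) and in 3 of the 16 called ones (18.8%), against 1.62% of 27025 promoters of that length. A CArG box stood in 2 of 29 (6.9%) and in 2 of the 16 called (12.5%), against 1.4%. The AP-1 letters TGACTCA or TGAGTCA stood in 0 of 29, against 4.43%, and the TATA box in 6 of 29 (20.7%), against 13%. An NF-kB site stood in 5 of 29 (17.2%) and in 1 of the 16 called (6.25%), against 7.01%. The CCAAT box stood in 12 of 29 (41.4%), against 34.5%, and the cell cycle homology region in 3 of 29 (10.3%), against 16.3%. The sterol gene motif searched stood in 0 of 29, against 1.04%. A match describes these letters only and is not evidence of binding.

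Inflammatory and NF-kB target genes were lower in pregnancy as well. Of 35 tested members 18 fell, against 1.69% of all genes, and none rose. 15 of them were peculiar to pregnancy, against 1.52%, and the median log2 fold change was -1.45. In 17 members all 3 Pregnant libraries lay below all 9 others, against 2.53%. The list took 0.89 to 1.29% of the counts in Pregnant libraries, 2.43 to 3.01% in Virgin, 2.49 to 5.37% in Lactating and 2.24 to 2.54% in Post-weaning libraries. Without Lactating replicate 3, 24 members were called, and 10, 1 or 6 when Pregnant replicate 1, 2 or 3 was left out.

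Among the inhibitors of NF-kB, Nfkbia, which encodes IkB-alpha, had 1259, 919.8 and 1248 CPM in the Pregnant, 2112, 2710.5 and 2635 in the Virgin, 2629.8, 2448 and 2166 in the Lactating and 2347, 2263 and 2366 in the Post-weaning libraries. The Pregnant libraries were the lowest at a mean 2.11-fold below the other stages (log2 fold change of -1.08 ± 0.17, adjusted p = 0.0059), and the call was lost without Pregnant replicate 2 (adjusted p = 0.0593). Nfkbib, which encodes IkB-beta, had 76.1, 63.9 and 56.6 CPM in pregnancy and 148 to 380.0 CPM elsewhere (log2 fold change of -1.92 ± 0.22, adjusted p = 0.00163). Its exons overlap Sirt2 and Ccer2 on the opposite strand. Birc3, which encodes the ubiquitin ligase cIAP2, had 62.8, 65.5 and 98.2 CPM against 149 to 215 CPM (log2 fold change of -1.28 ± 0.19, adjusted p = 0.00486), and it was no longer called without Pregnant replicate 2 (adjusted p = 0.0531). These were the 3 members that passed against each stage. Of the 4 NF-kB subunit genes on the list Nfkb1 and Rel fell, while Nfkb2 and Relb did not pass (log2 fold changes of -0.81 ± 0.25 and -0.75 ± 0.21, adjusted p = 0.136 and 0.09). Nfkb1 had 31.5, 32.9 and 34.5 CPM in Pregnant and 45.1 to 292 CPM in the other libraries (log2 fold change of -1.69 ± 0.29, adjusted p = 0.00959), and Rel had 57.8, 68.1 and 63.4 against 105 to 295 CPM (log2 fold change of -1.45 ± 0.28, adjusted p = 0.0184). Among the secreted products, Il1b, the interleukin 1 beta gene, had 1289.7, 794 and 1472 CPM in Pregnant, 3699, 3116 and 3099 in Virgin, 9048, 6621 and 2722 in Lactating and 3303, 2741 and 3725 in Post-weaning libraries (log2 fold change of -1.77 ± 0.34, adjusted p = 0.0187). The neutrophil chemokine gene Cxcl2 had 2081, 1249 and 2648 CPM against 4031 to 10085 CPM (log2 fold change of -1.52 ± 0.25, adjusted p = 0.00822). Il10, which encodes an anti-inflammatory cytokine, was also lowest in pregnancy, at 105, 71.9 and 134 against 169, 146 and 232 CPM in Virgin and 1183, 1238 and 491 in Lactating libraries, and its difference from Virgin did not pass the test (adjusted p = 0.388). Nfkb1, Rel and Il1b lost their calls without any of the Pregnant libraries (highest adjusted p = 0.0783, 0.111 and 0.137), and Cxcl2 and Il10 without Pregnant replicate 2 (adjusted p = 0.0531 and 0.0707). An NF-kB site stood in the promoters of 12 of the 24 members found in the table (50%) and in 6 of the 12 called ones (50%), against 7.01% of all promoters. The list was drawn up from NF-kB targets and the called members matched its share, so the sites say nothing about the fall.

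Feedback regulators of MAP kinase and cytokine signalling followed. 5 of 19 tested members fell, against 1.69% of all genes, and none rose, with a median log2 fold change of -0.94. Of those that fell, Dusp1, Dusp2 and Dusp5 are also counted among the lower immediate early genes. This list had 2 called members without Pregnant replicate 2 or without Pregnant replicate 3, and 8 lower and 1 higher without Lactating replicate 3. Errfi1, an inhibitor of the EGF receptor, had 36.2, 39.5 and 26.8 CPM in Pregnant and 113 to 298 CPM in the other libraries, 5.38-fold lower on average (log2 fold change of -2.42 ± 0.34, adjusted p = 0.00391). Dusp5, a phosphatase gene that acts on ERK, had 25.1, 28.1 and 24.2 CPM in pregnancy and its highest level in lactation, at 172, 254 and 190.1 CPM (log2 fold change of -1.75 ± 0.24, adjusted p = 0.00318). Socs3, which encodes an inhibitor of cytokine receptors, had 146, 79.5 and 97.6 against 196 to 454 CPM (log2 fold change of -1.46 ± 0.24, adjusted p = 0.00822) and lost its call without Pregnant replicate 2 or without Pregnant replicate 3 (highest adjusted p = 0.0763). Map2k3, the p38 kinase kinase gene, is no member of that list. Its level was 107, 77.3 and 90.03 CPM in Pregnant libraries, below 215 to 667 CPM elsewhere (log2 fold change of -2.23 ± 0.24, adjusted p = 0.00163) and differed from each stage. Map2k3os, a noncoding gene named as its opposite-strand transcript, fell with it, at 3.22, 1.95 and 2.57 CPM against 9.11 to 45.7 CPM (log2 fold change of -3.04 ± 0.63, adjusted p = 0.026). It lost its call in 5 fits, without any of the 3 Pregnant libraries, Post-weaning replicate 1 or Post-weaning replicate 3 (highest adjusted p = 0.176), and under limma-voom (adjusted p = 0.114). Since strand is not stated, reads of the pair cannot be told apart.

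**Figure D2:**
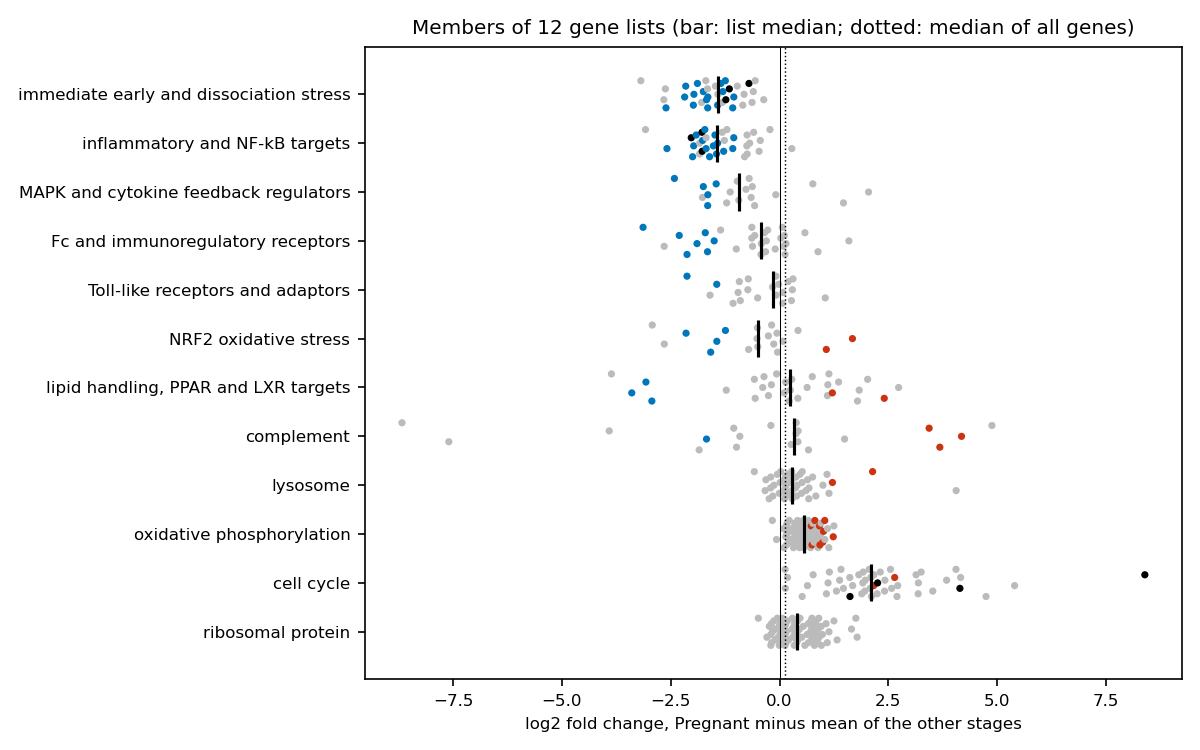
Log2 fold changes, Pregnant minus the mean of the other stages (x axis), of the members of 12 gene lists (rows). Red and blue points are genes peculiar to pregnancy, black points are other called genes, the vertical bar is the list's median and the dotted line the median of all genes (0.12), and all 35 immediate early genes lie left of 0 and all 50 cell cycle genes right of it.

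Several inhibitory and antibody-binding receptors of the cell surface were lower. Of 30 Fc and immunoregulatory receptor genes 7 fell, against 1.69% of all genes, and none rose. All 7 were peculiar to pregnancy, against 1.52%, and the list median was -0.42. The count was 11 without Lactating replicate 3 and 4 without any of the 3 Pregnant or the 3 Post-weaning libraries. Lilr4b (Entrez gene 14727, chromosome 10, 51480612 to 51486329), which encodes an inhibitory immunoglobulin-like receptor of myeloid cells, had 209, 173 and 158 CPM in the Pregnant, 1042, 1799 and 1116 in the Virgin, 2766, 2431 and 2231 in the Lactating and 1269, 1147 and 1227 in the Post-weaning libraries. This was 9.27-fold lower in pregnancy (log2 fold change of -3.14 ± 0.23, adjusted p = 0.000184), with adjusted p = 0.000995, 7.6e-05 and 0.00149 against Virgin, Lactating and Post-weaning. Its close paralog Lilrb4a also fell, to 766, 713 and 696 CPM from 1603 to 3802 CPM (log2 fold change of -1.66 ± 0.23, adjusted p = 0.00393), and reads that fit both genes make either value uncertain. Fcgrt, the neonatal Fc receptor gene that recycles IgG, had 26.2, 34.5 and 36 CPM in Pregnant, 217, 191 and 217 in Virgin, 93.6, 119 and 43.9 in Lactating and 179, 216 and 289 in Post-weaning libraries (log2 fold change of -2.31 ± 0.31, adjusted p = 0.00294). Its levels fell into 3 tiers, lowest in pregnancy, then in lactation, with the Virgin and Post-weaning libraries overlapping at the top. Cd72, an inhibitory lectin receptor gene, had 245, 205 and 308 against 475 to 1280.1 CPM (log2 fold change of -1.50 ± 0.18, adjusted p = 0.00193). Cd83, a gene of activated antigen-presenting cells that is no member of this list, had 844, 576 and 883 against 2625 to 9328 CPM, and its lowest library outside pregnancy was Lactating replicate 3 (log2 fold change of -2.50 ± 0.35, adjusted p = 0.00393).

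Of 21 Toll-like receptors and adaptors, 2 fell, against 1.69% of all genes, and none rose, with a median of -0.16. Ticam1, which encodes the adaptor TRIF, had 19.5, 4.7 and 12.1 CPM against 32.4 to 123 CPM (log2 fold change of -2.13 ± 0.43, adjusted p = 0.0227), and Tlr7, the endosomal receptor for single-stranded RNA, had 96.5, 109 and 158 against 178 to 585 CPM (log2 fold change of -1.44 ± 0.31, adjusted p = 0.0294). Ticam1 lost its call without Pregnant replicate 2 or 3 (highest adjusted p = 0.121). Tlr7 lost its own without any of the Pregnant libraries or without Post-weaning replicate 1 or 2 (highest adjusted p = 0.188). Without Lactating replicate 3, 6 members fell.

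Lrp1, Cd36 and Trem2, receptors for lipoproteins, lipids and dying cells, fell in pregnancy while 2 other scavenger receptor genes rose. The list of uptake receptors as a whole had a median of 0.10, near that of all genes. Of its 29 tested members 2 rose, against 1.07% of all genes, and 3 fell, against 1.69%. Lrp1 (Entrez gene 16971, chromosome 10, 127538157 to 127621148), a large endocytic receptor gene, had 6, 6.77 and 5.59 CPM in the Pregnant, 27.8, 37.6 and 54.2 in the Virgin, 37.8, 43.7 and 134 in the Lactating and 48.1, 63.2 and 84.2 in the Post-weaning libraries. Each Pregnant library was below every other, which the rule for the largest falls requires, and 9.63-fold lower on average (log2 fold change of -3.22 ± 0.47, adjusted p = 0.00459). Cd36 (Entrez gene 12491, chromosome 5, 17781690 to 17888959), a receptor for oxidised lipids and fatty acids, had 295, 73.8 and 86.4 CPM in the Pregnant, 549.5, 1027 and 983 in the Virgin, 1949, 2426 and 1790.4 in the Lactating and 1072, 1470.0 and 994 in the Post-weaning libraries. It was 8.97-fold lower in pregnancy (log2 fold change of -3.07 ± 0.46, adjusted p = 0.00497) and highest in lactation. Trem2 (Entrez gene 83433, chromosome 17, 48346401 to 48352276), a lipid-sensing receptor gene of tissue macrophages, had 6.45, 2.87 and 1.24 CPM in Pregnant, 33.4, 123 and 53.7 in Virgin, 10.05, 14.4 and 9.65 in Lactating and 62.1, 53.2 and 69.7 in Post-weaning libraries (log2 fold change of -3.40 ± 0.59, adjusted p = 0.0103). It was low in lactation too, where the difference from pregnancy did not pass the adjusted threshold (adjusted p = 0.151), and its call was lost without Pregnant replicate 2 (adjusted p = 0.0879). Msr1, the class A scavenger receptor gene, had 524, 548 and 471 CPM in Pregnant and 49.6 to 287 CPM in the other libraries (log2 fold change of 1.65 ± 0.38, adjusted p = 0.0433). Msr1 lost its call in 8 of the 12 fits that leave out a library, without any Pregnant or Post-weaning library, Virgin replicate 1 or Lactating replicate 2 (highest adjusted p = 0.196). Colec12, also a scavenger receptor gene, was called (log2 fold change of 4.05 ± 0.64, adjusted p = 0.0104) but overlapped Post-weaning, at 8.34, 12 and 27.1 against 12.9, 9.69 and 16.9 CPM, and had 0 counts in Virgin libraries. No higher member was called without Pregnant replicate 2 or without Pregnant replicate 3, and 5 lower members were called without Lactating replicate 3.

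Lipid regulators included genes called in either direction. Of 30 genes for lipid handling and targets of the nuclear receptors PPAR and LXR, 2 rose, against 1.07% of all genes, and 3 fell, against 1.69%, with a median of 0.23. Of those that fell, Cd36 and Trem2 are also counted on the list of uptake receptors. Pparg, which encodes PPAR-gamma, had 3.45, 2.41 and 8.65 CPM in the Pregnant, 20.4, 15.6 and 27.4 in the Virgin, 63.9, 48.2 and 87.7 in the Lactating and 38.6, 36.3 and 37.3 in the Post-weaning libraries. It was 8.63-fold lower in pregnancy (log2 fold change of -2.93 ± 0.45, adjusted p = 0.0059). Nr1h3, which encodes LXR-alpha, was called higher, with 59.8, 63.1 and 71.3 CPM in Pregnant and 1.14 to 25.7 CPM in the other libraries (log2 fold change of 2.40 ± 0.51, adjusted p = 0.0284). Nr1h3 lost its call in 8 of the 12 fits without a library, without any Pregnant or Post-weaning library or Virgin replicate 1 or 3 (highest adjusted p = 0.141). Apoc2, an apolipoprotein gene, had 65, 102 and 76.7 CPM against 19.6 to 51.1 CPM (log2 fold change of 1.21 ± 0.21, adjusted p = 0.0102) and lost its call without Pregnant replicate 2 (adjusted p = 0.137). Pla2g7, which encodes the lipoprotein-associated phospholipase, was among the most abundant genes peculiar to pregnancy, at 1893, 2398 and 2949.7 CPM against 413 to 1202 CPM (log2 fold change of 1.70 ± 0.21, adjusted p = 0.00205). It was named after its values were seen.

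Genes for metal handling and oxidative stress were lower in part. Of 19 iron and heme genes 3 fell, against 1.69% of all genes, and none rose, with a median of -0.26. Slc11a1, which encodes the NRAMP1 metal transporter of phagosomes, had 157, 115 and 113 CPM in Pregnant and 232 to 938 CPM in the other libraries (log2 fold change of -2.05 ± 0.29, adjusted p = 0.00391) and passed against each stage. Slc11a2, a related iron transporter gene, had 25.9, 29.8 and 25.4 against 35 to 245 CPM (log2 fold change of -1.58 ± 0.25, adjusted p = 0.00664) and was lost without Pregnant replicate 2 or 3 (highest adjusted p = 0.0519). Hmox1, which encodes heme oxygenase 1, stood at 55.9, 54.5 and 54.5 CPM, against 74 to 394 CPM elsewhere (log2 fold change of -1.58 ± 0.32, adjusted p = 0.0242). It lost its call in 4 fits, without any of the Pregnant libraries or Post-weaning replicate 2 (highest adjusted p = 0.147), and the list had 1 called member without Pregnant replicate 2 or 3. Of 19 NRF2 oxidative stress genes 4 fell, against 1.69%, and 2 rose, against 1.07%, with a median of -0.50. Hmox1 is counted among the lower members of this list as well. Sqstm1, the autophagy receptor p62 gene, had 447, 485 and 469.6 against 882 to 2424 CPM (log2 fold change of -1.44 ± 0.16, adjusted p = 0.00163). Srxn1 and Txnrd1, which encode sulfiredoxin and thioredoxin reductase, had log2 fold changes of -2.15 ± 0.28 and -1.24 ± 0.18 (adjusted p = 0.00294 and 0.00393). Gsr, the glutathione reductase gene, rose to 289.9, 365 and 369 CPM from 39.3 to 199 CPM (log2 fold change of 1.67 ± 0.30, adjusted p = 0.0146), and the thioredoxin gene Txn1 to 224, 329 and 252 from 77.8 to 189 CPM (log2 fold change of 1.07 ± 0.18, adjusted p = 0.00947). Neither of those rises was called without Pregnant replicate 2, and 1 of them was called without Pregnant replicate 3. Of 18 glucocorticoid and steroid response genes 5 fell, against 1.69%, and none rose, with a median of -0.94, and 3 fell without Pregnant replicate 2. Dusp1 and Errfi1, already counted as feedback regulators, are among the 5. The metallothionein gene Mt1 had 538, 512 and 649 CPM against 959.8 to 2373 CPM (log2 fold change of -1.25 ± 0.18, adjusted p = 0.00419), and Cebpb, a transcription factor gene of myeloid cells whose exons overlap Tmem189 on the opposite strand, had 619, 410.0 and 418 against 741 to 1742 CPM (log2 fold change of -1.44 ± 0.21, adjusted p = 0.00435).

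Other lower genes of large size included an integrin, a chemokine and a cyclin. Itga5 (Entrez gene 16402, chromosome 15, 103344286 to 103366791), which encodes the fibronectin receptor subunit, had 42.6, 18.8 and 32.7 CPM in Pregnant and 131 to 527 CPM in the other libraries, 9.51-fold lower on average (log2 fold change of -3.15 ± 0.34, adjusted p = 0.00163). Ccl9, a macrophage chemokine gene, had 23.4, 29.6 and 21.1 CPM in Pregnant, 119, 94.4 and 108 in Virgin, 754, 803 and 352 in Lactating and 87, 50.4 and 101 in Post-weaning libraries (log2 fold change of -2.83 ± 0.32, adjusted p = 0.00163). Ccnd2, which encodes cyclin D2, had 1.78, 3.56 and 1.99 CPM in pregnancy, 4.25, 12.4 and 19.8 in Virgin, 121, 123 and 136 in Lactating and 17.1, 7.75 and 10.4 in Post-weaning libraries (log2 fold change of -3.43 ± 0.52, adjusted p = 0.0054). For Ccl9 and Ccnd2 the Lactating libraries were the highest, above every Virgin and Post-weaning library.

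Complement genes of the alternative pathway were higher in pregnancy. The alternative pathway amplifies C3 cleavage with factor B and is stabilised by properdin. Of 20 tested complement genes 3 rose, namely C3, Cfb and Cfp, against 1.07% of all genes, and 1 fell, against 1.69%, with a list median of 0.32. All 3 that rose were peculiar to pregnancy, against 0.631% of genes. Cfb (Entrez gene 14962, chromosome 17, 34856374 to 34862514), the factor B gene, had 375, 359 and 359 CPM in the Pregnant, 15.6, 0.555 and 16.5 in the Virgin, 41.8, 44.4 and 9.65 in the Lactating and 30.8, 19.9 and 20.1 in the Post-weaning libraries. The lowest Pregnant library was several times the highest other, and the mean was 16.5-fold higher (log2 fold change of 4.18 ± 0.59, adjusted p = 0.00393). Cfp (Entrez gene 18636, chromosome X, 20925454 to 20931555), the properdin gene, had 631, 700.4 and 474 CPM in Pregnant, 90.9, 18.7 and 18.6 in Virgin, 44.4, 68.7 and 42.6 in Lactating and 33.2, 71.8 and 35.9 in Post-weaning libraries, 12.8-fold higher (log2 fold change of 3.68 ± 0.41, adjusted p = 0.00163). Cfp passed against each stage, with adjusted p = 0.0142, 0.00821 and 0.0231 against Virgin, Lactating and Post-weaning. C3 had 97, 85.9 and 158 CPM in pregnancy and 0 to 34.7 CPM in the other libraries (log2 fold change of 3.43 ± 0.71, adjusted p = 0.0254). That call was the least stable of the 3, lost in 7 fits, without any of the Pregnant or Post-weaning libraries or without Virgin replicate 3 (highest adjusted p = 0.153). C3ar1, the receptor gene for the C3a fragment, moved against its ligand, at 314, 335 and 306 CPM in Pregnant, 1157, 1066 and 1088 in Virgin, 1542, 1476 and 403 in Lactating and 858, 758 and 905 in Post-weaning libraries (log2 fold change of -1.68 ± 0.34, adjusted p = 0.0227). Its adjusted p was 1.87e-05 without Lactating replicate 3, and up to 0.136 in the 4 fits without a Pregnant library or Post-weaning replicate 3, where the call was lost.

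**Figure D3:**
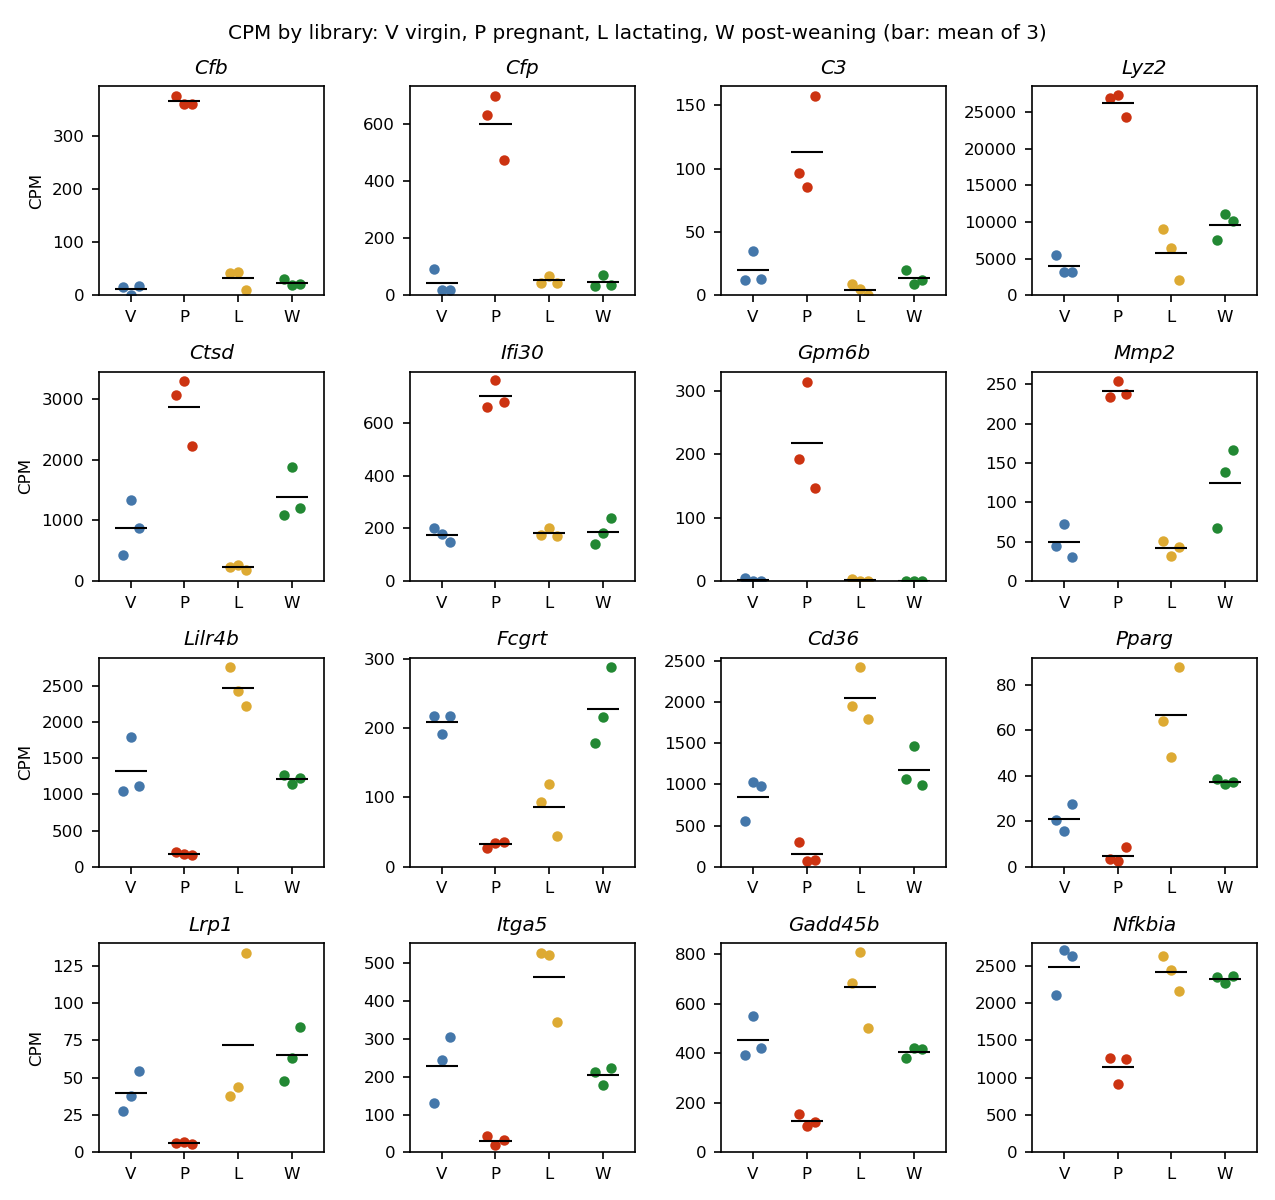
CPM (y axes, from 0) of 16 genes in the 12 libraries, by stage on the x axes, with a bar at each stage mean. Cfb, Cfp, C3, Lyz2, Ctsd, Ifi30, Gpm6b and Mmp2 have their 3 highest points in pregnancy, and the other 8 genes, from Lilr4b to Nfkbia, their 3 lowest. Cfb, Cfp, C3, Gpm6b, Lilr4b, Cd36, Pparg, Lrp1 and Itga5 are among the largest rises and falls, picked by a rule that requires this order.

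Lysozyme genes were higher. Lyz2 (Entrez gene 17105, chromosome 10, 117277541 to 117282272) had 26955, 27315 and 24327 CPM in the Pregnant, 5447, 3216 and 3120.3 in the Virgin, 8971, 6384 and 2101 in the Lactating and 7504, 11043 and 10154 in the Post-weaning libraries, 4.07-fold higher on average in pregnancy (log2 fold change of 2.12 ± 0.32, adjusted p = 0.00497). The Pregnant libraries were the 3 highest, the other stages overlapped in part (Lactating replicate 1 lay above Post-weaning replicate 1), and the step from Post-weaning did not pass the adjusted threshold (adjusted p = 0.213). Lyz1, its neighbouring paralog, had 479.8, 593 and 2652 CPM in Pregnant and 24.9 to 147 CPM in the other libraries (log2 fold change of 3.88 ± 0.52, adjusted p = 0.00294). Pregnant replicate 3 carried most of the Lyz1 mean, and reads shared between the paralogs could add to either. Of 16 MHC class II presentation genes 1 rose, against 1.07%, and none fell. It was Ifi30 (Entrez gene 65972, chromosome 8, 70762773 to 70766663), the lysosomal thiol reductase GILT, with 659, 763 and 679 CPM in the Pregnant, 200.2, 177 and 149 in the Virgin, 174, 201 and 171 in the Lactating and 139, 181 and 239 in the Post-weaning libraries. The 3 Pregnant libraries exceeded all others, 3.86-fold on average (log2 fold change of 1.95 ± 0.16, adjusted p = 0.000338), and Ifi30 passed against each stage. Without Lactating replicate 3, 7 class II genes were called lower beside it. Of 21 MHC class I genes 1 rose, against 1.07%, and none fell. It was H2-Q7, at 128, 132 and 111 against 23.3 to 94.3 CPM (log2 fold change of 1.66 ± 0.24, adjusted p = 0.00419), and its sequence is shared in part with other class I genes.

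Of 46 lysosomal genes tested 2 rose, against 1.07% of all genes, and none fell, with a median of 0.28, while their summed share was 5.06 to 5.13% of counts in Pregnant, 3.39 to 3.49% in Virgin, 1.98 to 3.67% in Lactating and 4.09 to 4.46% in Post-weaning libraries. Ctsd, the cathepsin D gene, had 3076, 3301 and 2228 CPM in Pregnant, 431, 1334 and 875 in Virgin, 237, 265 and 179 in Lactating and 1088, 1891 and 1202 in Post-weaning libraries (log2 fold change of 2.13 ± 0.28, adjusted p = 0.00256). Acp2, a lysosomal acid phosphatase gene, had 159.9, 203 and 240.1 CPM against 49.6 to 135 CPM (log2 fold change of 1.21 ± 0.22, adjusted p = 0.0153). Both were closest to pregnancy after weaning, where neither pairwise difference passed the adjusted threshold (adjusted p = 0.324 and 0.45). Acp2 lost its averaged call without Pregnant replicate 2 or 3 (highest adjusted p = 0.106), and without Lactating replicate 3 there were 8 higher and 1 lower lysosomal genes.

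Large rises were found in genes near or at 0 outside pregnancy. A gene with hardly any counts elsewhere passed the low-count filter through its Pregnant libraries, so that filter favoured such rises. Gpm6b (Entrez gene 14758, chromosome X, 166238943 to 166389033), which encodes a tetraspan membrane glycoprotein of the proteolipid family, had 193, 315 and 147 CPM in Pregnant and at most 4.82 CPM in any other library, where 5 of the 9 are at 0. It was the largest rise in the strict count, with adjusted p = 0.0458, 0.0145 and 0.0226 against Virgin, Lactating and Post-weaning. Chst2, a sulfotransferase gene, had 88.5, 87.5 and 84.8 CPM in Pregnant and 0 to 8.87 CPM in the other libraries (log2 fold change of 6.44 ± 1.02, adjusted p = 0.0065). Gpr83, an orphan receptor gene, had 63.7, 62.2 and 65.9 against 0 to 9.25 CPM (log2 fold change of 5.22 ± 0.98, adjusted p = 0.0165), and its call was lost without any of the Pregnant libraries (highest adjusted p = 0.0879). S100a4, a calcium-binding protein gene of motile cells, had 44.1, 62.9 and 47.3 against 0 to 9.76 CPM (log2 fold change of 5.05 ± 0.63, adjusted p = 0.00212). It is on the classical monocyte list too, where no other tested member was called. Of the 8 tested members 2 had log2 fold changes above 0 and 6 below. The list median was -2.87, or -1.89 with members at 0 in a stage set to their bound. That list took 0.0259 to 0.0286% of counts in Pregnant, 0.0266 to 0.0352% in Virgin, 0.0124 to 0.0214% in Lactating and 0.0221 to 0.0272% in Post-weaning libraries, and 6 of its 13 members, Ly6c2 and Chil3 among them, had 0 counts in pregnancy. In Virgin, Lactating and Post-weaning libraries 3, 6 and 2 members did, with Chil3 at 0 in each stage and Ly6c2 in none of these. Mcemp1, a mast cell and myeloid membrane protein gene, had 78.5, 70.4 and 73.2 against 0 to 11.8 CPM (log2 fold change of 4.93 ± 0.99, adjusted p = 0.0227). Serpina3g, a protease inhibitor gene of a multigene family whose copies share reads, had 49, 65.6 and 90.3 CPM in Pregnant, 8.15, 0 and 1.97 in Virgin and 0, 4.79 and 7.86 in Post-weaning libraries and 0 counts in lactation. In pooled counts its Pregnant level was at least 689-fold above the Lactating floor of 3 counts. Serpina3g lost its call in 6 fits and Mcemp1 in 5, each without any Pregnant library, Virgin replicate 3 or Post-weaning replicate 2, and Serpina3g also without Post-weaning replicate 3 (highest adjusted p = 0.127 and 0.114).

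The remaining 3 genes of the strict higher set were more moderate. Dnase1l3, a secreted nuclease gene of macrophages and dendritic cells, had 1008, 1079 and 1510.4 CPM in Pregnant and 145 to 609 CPM in the other libraries (log2 fold change of 1.98 ± 0.26, adjusted p = 0.00294). Gsto1 had 409.9, 490.0 and 525 against 170.3 to 261 CPM (log2 fold change of 1.16 ± 0.16, adjusted p = 0.00391). Sec61b, a subunit of the channel that passes proteins into the endoplasmic reticulum, had 123, 204 and 184 against 43.8 to 82.5 CPM (log2 fold change of 1.48 ± 0.22, adjusted p = 0.00459). In none of these 3 did a Pregnant library overlap the others, and Sec61b lost its averaged call without Pregnant replicate 2 (adjusted p = 0.0531).

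Mitochondrial respiratory chain genes shifted upward by a small amount. Of 72 oxidative phosphorylation genes tested, 70 had log2 fold changes above 0, with a median of 0.56 against 0.12 over all genes, and 9 rose, against 1.07%, and none fell. In 25 all Pregnant libraries were above all others, which 3.35% of genes were. The list took 0.966 to 1.11% of counts in Pregnant, 0.579 to 0.748% in Virgin, 0.532 to 0.685% in Lactating and 0.611 to 0.67% in Post-weaning libraries. Atp5g3, a subunit gene of ATP synthase, had 321, 416 and 438 CPM in Pregnant and 127 to 296 CPM in the other libraries (log2 fold change of 1.04 ± 0.19, adjusted p = 0.0134). Ndufa4, of the cytochrome oxidase complex, had 246, 317 and 241 against 82.8 to 168 CPM (log2 fold change of 1.01 ± 0.20, adjusted p = 0.0192). Cox5a, of the same complex, overlapped in 1 Virgin library, with 231, 359 and 391 against 106 to 238 CPM (log2 fold change of 1.23 ± 0.24, adjusted p = 0.0189). The calls were unstable: none of the 72 was called without Pregnant replicate 2 or without Pregnant replicate 3, 4 without Pregnant replicate 1, 3 without Post-weaning replicate 2 or 3, and 16 without Lactating replicate 3. Ribosomal protein genes had a median of 0.39, and edgeR called 0 of 79, against 2.76% of all genes, with 11 at an unadjusted p under 0.05 and 2 called by DESeq2, all higher, and 0 by limma-voom.

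Cell cycle genes were higher in direction throughout, and the number called depended on the tool. All 50 tested members had log2 fold changes above 0, with a median of 2.10, and in 26 all Pregnant libraries were above all others, against 3.35% of all genes. With edgeR 6 rose, against 1.07%, namely Birc5, Hmmr, Rrm2, Ccnb2, Nusap1 and Tyms, and 2 of them, Birc5 and Rrm2, were peculiar to pregnancy, against 0.631%. At an unadjusted p under 0.05 there were 27, all higher, and DESeq2 called 13, limma-voom 34 and limma-voom with quality weights 40, again all higher. The list took 0.213 to 0.241% of counts in Pregnant, 0.0533 to 0.0761% in Virgin, 0.0372 to 0.128% in Lactating and 0.0573 to 0.075% in Post-weaning libraries. Birc5, which encodes survivin of the chromosomal passenger complex, had 81.7, 80.1 and 68.2 CPM in the Pregnant, 2.87, 2.46 and 21.2 in the Virgin, 8.84, 6.21 and 18.8 in the Lactating and 13.7, 20.4 and 20.9 in the Post-weaning libraries. The Pregnant libraries were 5.98-fold higher on average (log2 fold change of 2.64 ± 0.54, adjusted p = 0.0233). Rrm2, a subunit gene of ribonucleotide reductase, had 59, 52.3 and 52.5 CPM against 6.74 to 28.7 CPM (log2 fold change of 2.16 ± 0.44, adjusted p = 0.023). Hmmr, which acts on the mitotic spindle, had 33.8, 29 and 33.5 CPM in Pregnant, 0 in all Virgin and Lactating and 0.916, 9.59 and 9.94 CPM in Post-weaning libraries. In pooled counts it was at least 402-fold above the Virgin and 295-fold above the Lactating floor of 3 counts. Mki67, the usual proliferation marker, had 59.9, 76.5 and 103 CPM in Pregnant and 4.67 to 68.7 CPM in the other libraries, which overlap, and was not called (log2 fold change of 1.47 ± 0.52, adjusted p = 0.2). The list had 21 called members without Lactating replicate 3, 10 without Lactating replicate 1, 1 without any of the Pregnant libraries or without Post-weaning replicate 1, and 2 without Post-weaning replicate 2 or 3. Birc5 lost its call without any Pregnant or Post-weaning library (highest adjusted p = 0.129), and Rrm2 without any Pregnant library or Post-weaning replicate 1 (highest adjusted p = 0.128).

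Matrix and growth factor genes gave mixed results. Of 22 matrix proteases and inhibitors 2 rose, against 1.07% of all genes, and 2 fell, against 1.69%, with a median of -0.95. Of 17 secreted growth factors 3 rose, against 1.07%, and 2 fell, against 1.69%. Their median was -0.09, or -0.30 with members at 0 in a stage set to their bound. The number of matrix genes called lower was 0 without any Pregnant or Post-weaning library or Virgin replicate 2 or 3, 1 without Virgin replicate 1 or Lactating replicate 1 or 2, and 5 without Lactating replicate 3. Of the growth factors none was called without Pregnant replicate 2 or 3. Mmp2, the gelatinase A gene, had 233, 255 and 238 CPM in Pregnant, 43.8, 72 and 30.9 in Virgin, 50.4, 31.4 and 43.4 in Lactating and 67, 139 and 167 in Post-weaning libraries (log2 fold change of 1.93 ± 0.27, adjusted p = 0.00393). It was the 1 called member of 15 tested fibroblast genes, against 2.76% of all genes. Of the 15, 2 had log2 fold changes above 0 and 13 below. The list median was -2.57, or -2.955 with members at 0 in a stage set to their bound. That list took 0.0731 to 0.0802% of counts in Pregnant, 0.0426 to 0.0931% in Virgin, 0.0409 to 0.079% in Lactating and 0.054 to 0.0855% in Post-weaning libraries, and 6 of its 18 genes, Pdgfra and Fn1 among them, had 0 counts in pregnancy. In lactation 7 of its genes did, again with Pdgfra and Fn1, and in Virgin and Post-weaning libraries 0 did. Mmp12, the macrophage elastase gene, had 1817, 1668 and 1491 CPM in Pregnant and 2946 to 10754 CPM in the other libraries (log2 fold change of -1.45 ± 0.34, adjusted p = 0.0437). Mmp12 kept its call only without Lactating replicate 3 among the 12 fits without a library (highest adjusted p = 0.208). Timp2, an inhibitor of these proteases, overlapped the other libraries, at 505, 531 and 543 against 236 to 526 CPM (log2 fold change of 0.68 ± 0.15, adjusted p = 0.0387), and lost its call in 9 of the 12 fits without a library (highest adjusted p = 0.192). Hbegf, an EGF-family ligand gene, fell to 10.7, 9.18 and 11.1 CPM from 31.7 to 128 CPM (log2 fold change of -2.65 ± 0.43, adjusted p = 0.00772), and Pdgfa, a platelet-derived growth factor gene, rose to 66.3, 103 and 94.5 from 16.1 to 42.3 CPM (log2 fold change of 1.58 ± 0.28, adjusted p = 0.0134). Both lost their calls without Pregnant replicate 2 or 3 (highest adjusted p = 0.0745 and 0.121). Igf1, the insulin-like growth factor gene, was called higher in the averaged contrast (log2 fold change of 2.79 ± 0.51, adjusted p = 0.0197) but is not peculiar to pregnancy. Its levels were 8.9, 10.2 and 14.4 CPM in the Pregnant, 4.71, 11.3 and 8.55 in the Virgin, 0, 0 and 0 in the Lactating and 32, 64 and 41.1 in the Post-weaning libraries. It was at 0 in all Lactating libraries and higher after weaning than in pregnancy. Igf1 lost its call without any Pregnant library or without Post-weaning replicate 2 or 3 (highest adjusted p = 0.0952).

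Genes of other cells in the gland moved with some of these results. In bulk RNA of sorted cells, fewer cells of a type and less RNA per cell cannot be told apart. Log2 fold changes were below 0 in all 7 pericyte and smooth muscle genes tested and all 6 adipocyte genes. They were also below 0 in 9 of 12 basal epithelial and 13 of 15 fibroblast genes. The medians were -1.16, -1.59, -1.09 and -2.57, against 0.12 over all genes. EdgeR called only Mmp2 among them, as higher. Luminal epithelial genes were split, 12 above 0 and 10 below. Endothelial genes took 0.000453 to 0.00181% of counts in Pregnant, 0.00282 to 0.0199% in Virgin, 0.000411 to 0.075% in Lactating and 0.00393 to 0.0172% in Post-weaning libraries, and 7 of the 20, Tek, Emcn, Flt1, Sox17, Sox18, Lyve1 and Prox1, had 0 counts in pregnancy. In Virgin, Lactating and Post-weaning libraries 3, 3 and 1 members were at 0. Lyve1 was at 0 in every stage, and Prox1 also in Virgin and Lactating libraries. None of 16 tested was called by edgeR, against 2.76% of all genes, with 10 lower at an unadjusted p under 0.05, 10 called lower by DESeq2 and 1 by limma-voom, at a median log2 fold change of -5.60, or -4.68 with members at 0 in a stage set to their bound. Timp3, Apold1 and Cd93, which endothelial cells also express, had the 3 largest falls among the named genes. Timp3, an inhibitor of metalloproteases that binds matrix, had 0 counts in all Pregnant libraries against 40.2, 21.4 and 20.03 CPM in Virgin, 0.52, 7.86 and 154 in Lactating and 63.2, 21.7 and 43 in Post-weaning libraries. In pooled counts it was at least 577-fold lower than in the 9 others (adjusted p = 0.0323), and its exons overlap Syn3 on the opposite strand. Apold1, an endothelial early response gene, had 0, 0 and 0.0414 CPM against 0.204 to 158 CPM (adjusted p = 0.0245). Cd93, a lectin-like receptor gene, had 1.33, 0 and 0.207 against 6.94 to 29.5 CPM (adjusted p = 0.025). Timp3 lost its call in 9 fits and kept it without any Lactating library. Apold1 lost its call without any of the Pregnant libraries and under limma-voom (adjusted p = 0.0848), and Cd93 without Pregnant replicate 2 or 3 or Post-weaning replicate 1 or 2. The highest adjusted p was 0.139 for Timp3, 0.162 for Apold1 and 0.139 for Cd93. Whether the share of endothelial or other cells of the gland plays a part in these 3 falls was not tested.

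Luminal epithelial genes took 0.0545 to 0.155% of counts in Pregnant, 0.0221 to 0.144% in Virgin, 0.0169 to 0.152% in Lactating and 0.0377 to 0.136% in Post-weaning libraries, and edgeR called 0 of 22 tested, against 2.76% of all genes, with 3 higher and 4 lower at an unadjusted p under 0.05, 1 higher and 4 lower by DESeq2 and 1 higher by limma-voom. Cldn1, a tight junction gene of epithelial cells, rose in pregnancy, with 66.8, 113 and 37.4 CPM in Pregnant, 2.95, 0 and 17.5 in Lactating and 0 counts in all Virgin and Post-weaning libraries (adjusted p = 0.0105). In pooled counts it was at least 730-fold above the Virgin and 692-fold above the Post-weaning floor of 3 counts, and it lost its call without Pregnant replicate 2 (adjusted p = 0.0707). Epcam, the general epithelial surface gene, had 208, 188 and 171 CPM in Pregnant and 9.27 to 228 CPM in the other libraries and was not called (adjusted p = 0.323). Whether epithelial RNA plays a part in the Cldn1 level was not tested. Milk and secretory cell genes took 0.275 to 1.56% of counts in Pregnant, 0.0691 to 0.105% in Virgin, 0.207 to 7.57% in Lactating and 0.22 to 0.385% in Post-weaning libraries. 3 of 20 tested were called higher, against 1.07% of all genes, namely Glycam1, Csn1s2a and Csn2, and none was peculiar to pregnancy. Csn2, the beta-casein gene, had 3111, 316 and 456 CPM in Pregnant, 0, 0 and 0.0731 in Virgin, 286, 243 and 14394 in Lactating and 39.8, 47.1 and 17.7 in Post-weaning libraries. The Pregnant and Lactating libraries overlap. There were 7 called milk genes without that library and 1 without Pregnant replicate 1, the library with the most casein counts of its stage.

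**Figure D4:**
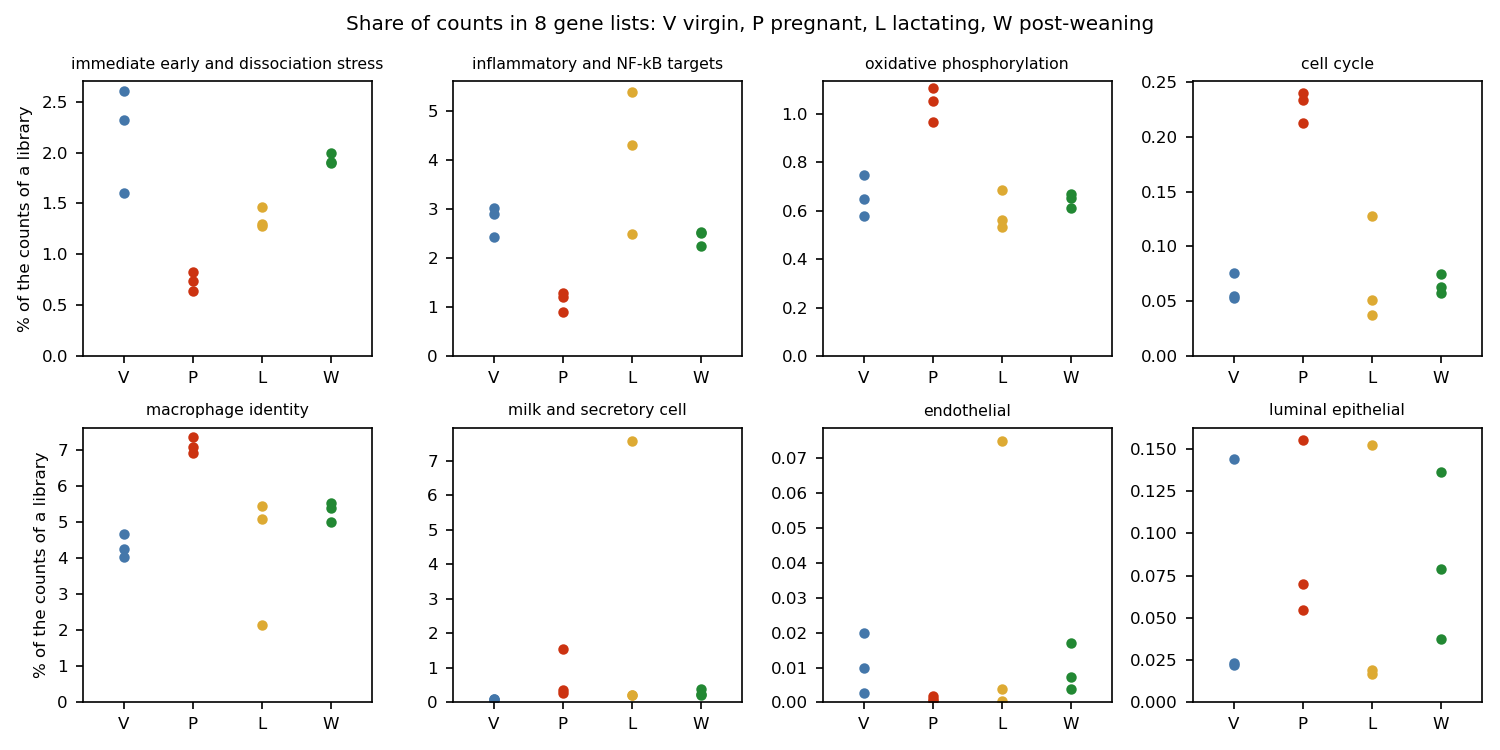
Share of each library's counts, in percent (y axes, from 0), taken by 8 gene lists, by stage on the x axes; each point is a library. The immediate early and NF-kB lists have their 3 lowest points in pregnancy, the oxidative phosphorylation, cell cycle and macrophage identity lists their 3 highest, and the milk panel is stretched by Lactating replicate 3 at 7.57%.

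By edgeR no gene was called in the lists for heat-shock chaperones (0 of 20), the unfolded protein response (0 of 24), the type I interferon response (0 of 34), chemokine receptors (0 of 11) and dendritic cell markers (0 of 17). The share over all genes was 2.76%, so few calls or none would be found in lists of this size at that share. At an unadjusted p under 0.05 there were 6, 5, 4, 2 and 5 such members in the same order. DESeq2 called 3, 2, 0, 1 and 3 of them, and limma-voom 0, 2, 0, 1 and 1. Of 22 interferon-gamma response genes 1 rose, against 1.07% of all genes, and 1 fell, against 1.69%. They were Gbp7, a guanylate-binding protein gene, and Irf1, a transcription factor gene. Irf1 had 123, 92.9 and 85 CPM in Pregnant and 163 to 300.3 CPM in the other libraries (log2 fold change of -1.25 ± 0.20, adjusted p = 0.00772), and Gbp7 had 76.6, 87 and 82 against 17.3 to 62.7 CPM (log2 fold change of 1.19 ± 0.23, adjusted p = 0.0202). Irf1 was no longer called without Pregnant replicate 2 or 3 and Gbp7 without any Pregnant library (highest adjusted p = 0.0763 and 0.142). Of 24 cholesterol biosynthesis genes 1, Hmgcs1, rose (adjusted p = 0.0447), against 1.07% of all genes. It had 109.5, 97.5 and 70.6 CPM in Pregnant and 8.61, 11.5 and 19.1 in Virgin but 131, 108 and 105 CPM in Lactating libraries, so it was not peculiar to pregnancy. Its call was lost in 9 of the 12 fits without a library, up to adjusted p = 0.238. Mrc1, the mannose receptor gene of stromal macrophages, was far lower than in Virgin and Post-weaning libraries, at 5.45, 5.85 and 2.73 against 64.6, 108 and 124 and 129, 183 and 166 CPM, but overlapped lactation (21.7, 9.69 and 0 CPM) and was not called (log2 fold change of -3.56 ± 1.00, adjusted p = 0.0961). Without Lactating replicate 3 it was (adjusted p = 0.000276).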

How the data were processed

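RNA from freshly sorted macrophages was amplified with a full-length kit for small inputs (SMART-Seq v4) that adds no molecular identifiers, and all libraries shared 1 sequencing run, per the labels' protocols. The tables the authors deposited hold whole-number read counts for each gene, without normalization. featureCounts and the build mm10 are named per the submitters' processing notes. For the aligner, the strand setting and all versions, the sources used here state nothing. The 12 sample tables match the series table in every cell. Symbols and coordinates are from a RefSeq table of GRCm38.p6, which holds 25275 (93%) of the 27179 gene IDs.

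Genes were filtered by filterByExpr, scaled by TMM, and fitted with edgeR 4.0.16 (R 4.3.3) by its robust quasi-likelihood test, with 1 coefficient for each stage and all 12 libraries sharing the estimate of spread. Biological variation between replicates, as a common coefficient, came to 0.856. Adjusted p-values are Benjamini-Hochberg over all 12672 genes tested. A gene at or near 0 at the other stages, such as Cldn1, passes filterByExpr only with the Pregnant libraries. CPM were computed from the same fit's library sizes. A gene with 0 counts over a stage gets a bound against 3 pooled counts, covering counting error only.

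Named genes were the 12 largest rises and 12 largest falls peculiar to pregnancy (predicted-gene and Rik names left out, mean log2 CPM of at least 3, the 3 Pregnant libraries beyond all 9 others), up to 3 called members of each of 43 lists by smallest adjusted p, and 6 fixed genes (Adgre1, Csf1r, Cx3cr1, Itgax, Mrc1 and Mki67). Every other gene named with a value was chosen after its values were seen. Members and lists were chosen with earlier results of these data known. Alternatives were DESeq2 1.42.0, limma-voom (limma 3.58.1) plain or with quality weights, a minimum of 5 CPM in 3 libraries or no minimum, scaling by RLE size factors or by TMM computed after dropping mitochondrial, ribosomal, epithelial and milk genes, a replicate block, a 2-group fit and leaving out each library. The procedure was tested on simulated data. No explanation was tested.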

Additional observations from a re-analysis of the deposited data

How the results depend on the processing

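Against 350 called, 272 peculiar and 52 strictly peculiar genes, DESeq2 gave 948, 546 and 229, limma-voom 765, 488 and 84, and limma-voom with quality weights 1529, 764 and 216. A fit of 2 groups, Pregnant and the 9 others pooled, called 119. Leaving out 1 library gave 79 to 700 called, 70 to 487 peculiar and 1 to 156 strictly peculiar genes, the lowest each time without Pregnant replicate 2 and the highest without Lactating replicate 3. Each such fit has fewer samples. RLE size factors (376, 289 and 60), TMM without the listed genes (349, 271 and 52), no low-count filter (321, 249 and 50) and 5 CPM in 3 libraries (384, 290 and 62) stayed within 1.5 times. The share of called genes that were higher was 38.9% with edgeR, 64.2% with limma-voom and 59% with its quality weights, where the median log2 fold change of all genes was 0.12, 0.29 and 0.21.

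The fit with a replicate block gave 229 called, 201 peculiar and 22 strictly peculiar genes, and 14 of the 77 named genes lost their call under it. The replicate numbers share only a name: same-numbered libraries of different stages correlated at -0.068 to 0.073 in their deviations from the stage means, and 2 of the 12 correlated best with their own number. Among named genes 2 reversed, both in the 2-group fit, Igf1 (log2 fold change of -0.684, adjusted p = 0.976) and Csn2 (-0.368, adjusted p = 0.995). Under RLE size factors Hmgcs1 lost its call (adjusted p = 0.0561), and under TMM without the listed genes, no low-count filter and 5 CPM in 3 libraries each of the 77 kept its side of the threshold.

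With 3 libraries a stage and a coefficient of variation of 0.856, small differences in genes of few counts were not detectable, and the libraries' 6926273 to 21204704 counts, without molecular identifiers, count PCR copies as reads.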

Other observations

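Further genes peculiar to pregnancy, chosen after their values were seen, add to the groups described. Several had at most a trace of counts outside pregnancy. Such genes passed the low-count filter only through the Pregnant libraries where they are high, so their adjusted p-values add no support of their own. Fpr1, a receptor gene for formyl peptides of bacteria and damaged mitochondria, had 7.56, 2.75 and 11.9 CPM in the Pregnant libraries and 0 counts in the 9 others (edgeR adjusted p = 0.03). Its neighbour and relative Fpr2 had 1.45, 5.39 and 6.96 CPM and 0 to 0.0731 CPM in the others (adjusted p = 0.0238), and reads shared by the pair could count for either. Il22ra2, which encodes a soluble receptor that binds interleukin 22, had 7.34, 8.83 and 5.38 CPM and 0 counts in all others (adjusted p = 0.0269). Among mitosis genes outside the list, the cohesin acetyltransferase gene Esco2 had 6.56, 27.9 and 14.9 CPM and the spindle gene Aspm 3.78, 8.14 and 9.48 CPM, both with 0 counts elsewhere (adjusted p = 0.0165 and 0.0284). All 5 are low genes, and none passed against each stage at an adjusted p under 0.05. Each lost its averaged call without any Pregnant library, Fpr1, Il22ra2 and Aspm also without any Post-weaning library, and Fpr2 without any Post-weaning or Virgin library (highest adjusted p = 0.165, for Aspm). At higher levels the Pregnant libraries lay above all others for Il2rg, the common cytokine receptor chain gene, with 426, 484 and 449.6 CPM against 82.4 to 306 CPM (adjusted p = 0.00664), for the integrin gene Itgal with 106, 119.9 and 156 against 31.1 to 87.6 CPM (adjusted p = 0.00772), and for the matrix protein gene Tgfbi with 1150.4, 1242 and 1624 against 523 to 1052 CPM (adjusted p = 0.0184). Without Pregnant replicate 2 none of the 3 was called, nor Itgal and Tgfbi without Pregnant replicate 3 (highest adjusted p = 0.0584, 0.0722 and 0.125).

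Among the lower genes were Id2 and Id3, which encode inhibitors of basic helix-loop-helix factors, and both passed against each stage. Id2 had 381, 363 and 214 CPM in Pregnant and 588 to 1062 CPM in the other libraries (adjusted p = 0.00497), and Id3 had 5.78, 10.1 and 4.84 against 18.8 to 80.6 CPM (adjusted p = 0.00605). Cdkn1a, which encodes the cell cycle inhibitor p21, had 169, 99.1 and 121 CPM against 353 to 678 CPM (adjusted p = 0.00205). Rcan1, a calcineurin inhibitor gene, had 176, 114 and 249.6 CPM in Pregnant, 553, 826 and 733 in Virgin, 2825, 2474 and 1493 in Lactating and 997, 1244 and 1025 in Post-weaning libraries (adjusted p = 0.00163). Cd207, which encodes langerin, had 123, 77.5 and 130.0 CPM in Pregnant, 324, 352 and 188 in Virgin, 2992, 2558 and 1413 in Lactating and 345, 257 and 287 in Post-weaning libraries (adjusted p = 0.00256), with lactation far above the other stages. Mgl2, a lectin gene, had 29.7, 10.9 and 15.9 CPM in Pregnant and 50.02 to 174 CPM in the other libraries (adjusted p = 0.0227), and lost its call without Pregnant replicate 2 or 3 (highest adjusted p = 0.149).

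The test and the plain order of the libraries lean opposite ways. All 3 Pregnant libraries lay above all 9 others in 424 of 12672 genes (3.35%) and below them in 321 (2.53%), whereas edgeR called 136 higher and 214 lower. Of the called genes 78 were not peculiar to pregnancy, 56 of them higher, among them Igf1, the milk genes and 4 of the 6 called cell cycle genes.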
